A study of Homo sapiens with 6 samples.

Results

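The transcripts of 10 genes of iron storage, glutathione metabolism and the NRF2 response were followed in TE-1 cells with and without forced FGL1 expression. The genes were FTL, FTH1, HMOX1, SLC7A11, GCLC, GCLM, GPX4, TXNRD1, SRXN1 and NQO1. They were chosen by name, with earlier results of these data known. All 10 were found among the 12180 genes listed, with 41 of the 33090 listed transcripts. TE-1 is an established human esophageal squamous cell carcinoma (ESCC) line, and FGL1 is a secreted fibrinogen-like protein that is normally made mainly by the liver. The study compared the transcriptomes of both kinds of cell to look for genes downstream of FGL1. The 3 control libraries are called NC here, the paper's name for TE-1 cells given a lentivirus with a random nonsense insert. The 3 FGL1-OE libraries came from cells given a lentivirus that carries FGL1. The sample labels name the genotypes WT and FGL1 overexpression. The paper does not say which control cells were sequenced, so the 3 NC libraries may come from cells without such an insert. The methods describe stable lines established through puromycin and do not say whether the NC cells of these libraries were selected in the same way. They also do not say how many times each line was made. Nothing in the labels says whether libraries of a group came from separate cultures, so that p-values measure the spread between these libraries, which may be technical.

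NRF2, encoded by NFE2L2, is a transcription factor that is kept low by KEAP1 and that accumulates when KEAP1 is modified by oxidants or electrophiles. It then binds antioxidant response elements (ARE) next to genes that make glutathione, regenerate thioredoxin, detoxify quinones and store iron. Ferritin is controlled a second time, since iron regulatory proteins bind a hairpin, the iron-responsive element (IRE), at the start of its mRNA and hold back translation, so that mRNA and protein of ferritin can move apart. The pathway is often active in squamous carcinomas of the esophagus through mutation of NFE2L2 or KEAP1.

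The IRE loop is shown first because both ferritin genes carry it and because the FTH1 transcripts described below differ in whether they hold it. The letters CNNNNNCAGTG were searched on the sense strand in the first 250 bases of each transcript of GENCODE v29. They were present in 9.46% of 206694 transcripts, so a match alone is common and marks no site by itself. The capitals mark the match, in bases 65 to 75 of the FTH1 transcript ENST00000273550 and in bases 41 to 51 of the FTL transcript ENST00000331825, within 30 printed bases of each. Of the 10 genes, SLC7A11 also held the letters, from base 33 of ENST00000280612.
FTH1: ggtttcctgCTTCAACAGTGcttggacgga
FTL: tgtctcttgCTTCAACAGTGtttggacgga

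ARE letters are shown for the members whose promoter windows hold them, since these are the sequences through which NRF2 is known to act. The letters TGACNNNGC were searched on both strands of RefSeq windows on GRCh38.p14 that run from 250 bases before to 50 bases after each gene start, and 13.3% of 35116 windows held a match. A window was found for 7 of the 10 genes. GCLM held 1 match and TXNRD1 held 3, in 2 windows of alternative starts. The capitals mark the match as read on the gene's own strand, so that GCNNNGTCA is a match on the opposite strand.
GCLM, chr1:93909446-93909474, minus strand, bases -34 to -26 from the start: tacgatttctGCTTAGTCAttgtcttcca
TXNRD1, chr12:104215670-104215698, plus strand, bases -99 to -91: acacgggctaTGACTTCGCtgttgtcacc
TXNRD1, chr12:104215761-104215789, plus strand, bases -8 to 1: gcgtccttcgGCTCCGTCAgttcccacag
TXNRD1, chr12:104286920-104286948, plus strand, bases -102 to -94 of another start: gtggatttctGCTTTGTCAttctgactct

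The windows of FTL, NQO1, GCLC, SRXN1 and GPX4 held no match, which says only that these letters are not in these windows. The AP-1 letters TGANTCA, which can overlap an ARE, were found in 7.71% of all windows and in none of those of the members.

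Values are FPKM as deposited, which are fragment counts scaled for transcript length and for the size of the library. Levels can therefore be compared between genes per length, but only roughly, since gene values were not always the sum of the listed transcripts. The files hold no read counts and no step of 1 read could be found in the low values, so that the depth is unknown and no counting intervals are given. The gene FPKM summed to between 210904 and 226307 per library. FGL1 itself had 0.0202, 0 and 0.106 FPKM in NC 1 to 3 and 33.5, 39.3 and 39.9 FPKM in FGL1-OE 1 to 3. It was the only gene of 12017 tested that passed an adjusted p of 0.05 (log2 fold change 5.21, SE 0.15, n = 3 and 3, adjusted p = 1.29e-05, limma with Benjamini-Hochberg adjustment). Of 14 squamous epithelial markers 11 were listed, with KRT14, KRT6B and SOX2 not listed and TP63 between 0.299 and 0.779 FPKM. Their sum ran from 450 to 741 FPKM in NC and from 647 to 735 FPKM in FGL1-OE, and 2 of them, CDH1 and KRT6A, were higher in FGL1-OE at an unadjusted p of 0.05. The largest parts of the sum were SFN with 198 to 459 FPKM and KRT6A with 108 to 197 FPKM. KRT5, KRT13 and KRT15 were low, at 1.98 to 6.42 FPKM. Their log2 fold changes were -0.064, -0.27 and -0.26, while the other tested squamous markers lay above 0. Of markers of other cell types, 3 of 6 for fibroblasts were listed with sums of 2.29 to 8.11 FPKM in NC and 3.24 to 8.27 FPKM in FGL1-OE. For leukocytes 2 of 6 were listed, CD68 and CD14, with sums of 3.11 to 6.06 FPKM in NC and 3.62 to 5.67 FPKM in FGL1-OE, and PTPRC was not. For glandular epithelium 1 of 8 was listed, MUC1 at 15.5 to 22.5 FPKM, and for erythroid cells 1 of 5, HBA1 at 0.286 to 0.942 FPKM. None of 4 endothelial markers was listed. The part of these markers in the results was not tested.

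The library NC 2 stood apart from NC 1. Log2 values of these libraries had a Pearson correlation of 0.885 across genes, against 0.981 or more between FGL1-OE libraries. The difference of NC 2 from NC 1 followed the GC content of the genes, with a Spearman rho of -0.788 over 11786 genes, which are not independent replicates. Genes more than 1 log2 unit higher in NC 2 were 9.88% of all and had a median GC content of 39.9%, whereas those more than 1 log2 unit lower were 9.08% and had a median of 62.7%. This touches several of the 10 genes, and their differences between the groups are therefore given with and without NC 1 and NC 2.

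The 10 genes spanned a wide range of expression in TE-1 cells. FTL, the light chain of ferritin, had a mean of 1783 FPKM over the 6 libraries and ranked between place 2 and place 10 of all listed genes. FTH1, the heavy chain with the ferroxidase site that oxidizes iron for storage, followed with 354 FPKM at rank 39 to 76. NQO1, GPX4 and SRXN1 had 68.9, 62.0 and 52.5 FPKM, and their ranges overlapped from each to the next. TXNRD1 had 28.6 FPKM and GCLM 14.5 FPKM. GCLC had 10.7 FPKM, HMOX1 9.87 FPKM and SLC7A11 6.61 FPKM. The ranges over libraries were apart between FTL and FTH1, between FTH1 and NQO1 and between SRXN1 and TXNRD1, and every other pair of neighbours in this order overlapped. The order holds for gene values. Summed over listed transcripts, GPX4 had means of 155 and 158 FPKM in NC and FGL1-OE, above NQO1 with 105 and 126 FPKM.

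**Figure D1:**
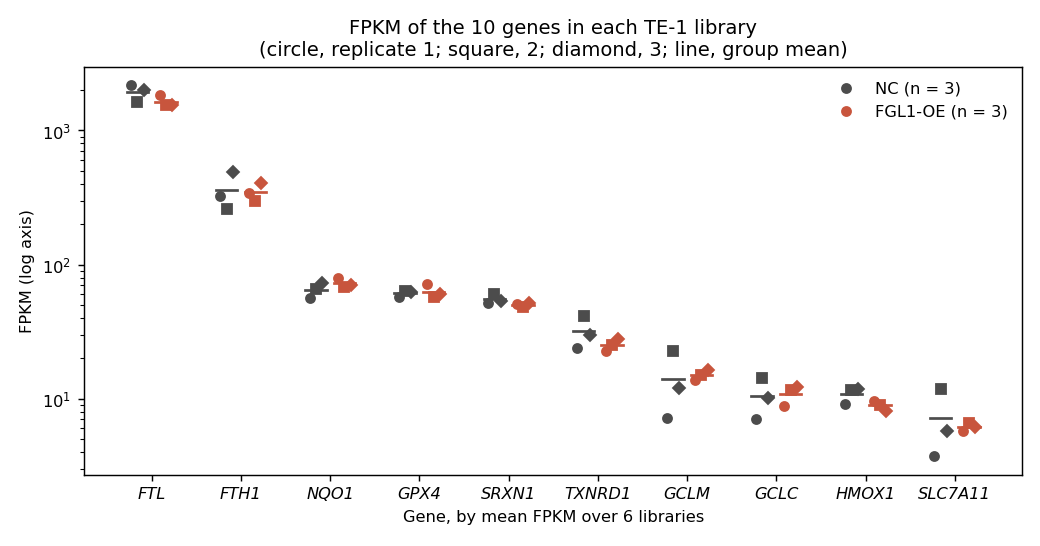
FPKM of the 10 genes in each library on a log axis, in the order of their mean over 6 libraries, with NC in grey, FGL1-OE in red and lines at the group means (n = 3 each). FTL and FTH1 sat above all others in every library, and the widest spread was that of GCLM, SLC7A11 and GCLC in NC, with replicate 1 lowest and replicate 2 highest.

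None of the 10 genes differed between FGL1-OE and NC at an adjusted p of 0.05 in limma, where 0.00832% of all 12017 genes tested did. At an unadjusted p of 0.05 again 0 of 10 genes passed, against 2.01% of all genes. All 10 had a mean of at least 0.5 FPKM and entered the test. Their median log2 fold change was -0.029, beside 0.016 over all genes, and 5 of 10 lay above 0. A single gene, SRXN1, had groups that did not overlap, against 7.15% of all genes. Every adjusted p of a member was 1.00. In the exact two-sided permutation test with 3 against 3 libraries 0.1 is the smallest p that can be reached.

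Among the iron genes, FTL (chromosome 19, 49468558 to 49470135, GRCh37) had 2177, 1622 and 1993 FPKM in NC 1 to 3 and 1828, 1539 and 1536 FPKM in FGL1-OE 1 to 3. FGL1-OE 2 and 3 were below all NC libraries, but FGL1-OE 1 lay between them, so that the groups overlapped. The means were 1931 ± 283 and 1635 ± 168 FPKM (SD, n = 3), a log2 fold change of -0.23 (SE 0.17, 95% interval -0.63 to 0.16). It was -0.35 without NC 2 and -0.14 without NC 1. In bulk RNA, fewer cells that express a gene and less RNA of it per cell cannot be told apart, here and in all values that follow. FTH1 (chromosome 11, 61727190 to 61735132) had 326.9, 260.4 and 488.4 FPKM in NC and 343.9, 299.1 and 407.5 FPKM in FGL1-OE. Replicate 3 was highest and replicate 2 lowest in both groups, and the FGL1-OE values lay within the NC range. The means of FTH1 were 359 ± 117 and 350.1 ± 54.5 FPKM, with a log2 fold change of 0.0037 and a 95% interval of -0.58 to 0.59, which is wide enough to hold a change of either sign. Of the 31-base words of the FTL transcript 33.3% and of those of the FTH1 transcript ENST00000273550 83.0% also occur in other genes of GENCODE v29, 6 for FTL and 20 for FTH1, so that reads may be shared with these copies.

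Heavy and light ferritin chains are assembled into the same shell, and their proportion was compared as the ratio of FTH1 to FTL FPKM. It was 0.150, 0.161 and 0.245 in NC and 0.188, 0.194 and 0.265 in FGL1-OE. The third replicate was highest in each group and the groups overlapped. The log2 difference was 0.24 (SE 0.27, exact two-sided permutation p = 0.5, 0.75 after adjustment over 3 ratios). The listed FTH1 transcripts summed to means of 778 and 759 FPKM in NC and FGL1-OE, above the gene values, so the size of the ratio depends on this choice. With transcript sums the log2 difference was 0.25.

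HMOX1 (chromosome 22, 35776354 to 35790207) encodes heme oxygenase 1, which releases iron from heme. It had 9.18, 11.6 and 11.8 FPKM in NC and 9.64, 9.02 and 8.02 FPKM in FGL1-OE. NC 2 and NC 3 were above every FGL1-OE library, while NC 1 lay among them. The means were 10.85 ± 1.45 and 8.89 ± 0.82 FPKM and the log2 fold change was -0.26 (SE 0.16, 95% interval -0.63 to 0.12). Without NC 1 it was -0.36 and without NC 2 -0.21.

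The genes of glutathione synthesis, SLC7A11, GCLM and GCLC, varied most within NC on the log2 scale, with GCLC hardly ahead of FTH1. Within FGL1-OE the log2 SD was 0.081 for SLC7A11, 0.12 for GCLM and 0.24 for GCLC, beside 0.22 for FTH1. SLC7A11 (chromosome 4, 139085251 to 139163503), the light chain of the exchanger that imports cystine, had 3.72, 11.9 and 5.71 FPKM in NC and 5.73, 6.53 and 6.10 FPKM in FGL1-OE. NC 1 was the lowest and NC 2 the highest of all 6 libraries, and the FGL1-OE values lay close together between them. The log2 fold change was -0.061 (SE 0.34, 95% interval -0.85 to 0.72). Without NC 2 it was 0.34 and without NC 1 -0.39, so that its sign depended on which control was left out. The heavy chain of the exchanger, SLC3A2, had 68.0, 37.8 and 62.7 FPKM in NC and 52.6, 44.7 and 45.8 FPKM in FGL1-OE, with NC 2 lowest. The ratio of SLC7A11 to SLC3A2 was thus 0.0546, 0.315 and 0.0910 in NC, and 0.109, 0.146 and 0.133 in FGL1-OE. Its log2 difference was 0.14 (SE 0.76, exact two-sided permutation p = 0.9, also 0.9 after adjustment over 3 ratios).

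GCLC (chromosome 6, 53362139 to 53481768) and GCLM (chromosome 1, 94350761 to 94375012) encode the catalytic and the modifier subunit of glutamate-cysteine ligase, the rate-limiting enzyme of glutathione synthesis. GCLC had 7.07, 14.2 and 10.2 FPKM in NC and 8.73, 11.5 and 12.2 FPKM in FGL1-OE. GCLM had 7.19, 22.8 and 12.0 FPKM in NC and 13.8, 14.9 and 16.4 FPKM in FGL1-OE. As for SLC7A11, NC 1 was lowest and NC 2 highest of all libraries for both subunits, and FGL1-OE 1 was the lowest of its group. The log2 fold change was 0.078 for GCLC (SE 0.25, 95% interval -0.51 to 0.67). For GCLM it was 0.23 (SE 0.35, 95% interval -0.59 to 1.05). Without NC 2, GCLM differed by 0.63 and GCLC by 0.31. Without NC 1 the values were -0.14 for GCLM and -0.15 for GCLC, of the opposite sign. The ratio of GCLC to GCLM was 0.984, 0.623 and 0.844 in NC and 0.633, 0.776 and 0.745 in FGL1-OE. The lowest ratio was that of NC 2, and FGL1-OE 1 lay next to it. Its log2 difference was -0.17 (SE 0.21, exact two-sided permutation p = 0.5, 0.75 after adjustment over 3 ratios).

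GPX4 (chromosome 19, 1103925 to 1106790) is the selenoenzyme that uses glutathione to reduce lipid peroxides and thereby holds back ferroptosis. It had 57.1, 63.7 and 62.7 FPKM in NC and 71.1, 57.1 and 60.1 FPKM in FGL1-OE. FGL1-OE 1 was above all others and the remaining libraries of both groups were mixed. The means were 61.2 ± 3.59 and 62.7 ± 7.40 FPKM and the log2 fold change was 0.031 (SE 0.15, 95% interval -0.32 to 0.39).

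Of the thioredoxin branch, TXNRD1 (chromosome 12, 104609557 to 104744083), the cytosolic thioredoxin reductase, had 24.0, 41.6 and 29.8 FPKM in NC and 22.8, 25.3 and 27.9 FPKM in FGL1-OE. NC 2 stood above all others and NC 1 lay within the FGL1-OE range. The log2 fold change was -0.29 (SE 0.22, 95% interval -0.79 to 0.22), the lowest of the 10. It was -0.47 without NC 1 and -0.081 without NC 2. Summed over its listed transcripts instead of taken from the gene table, TXNRD1 had a log2 fold change of 0.052, of the opposite sign.

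SRXN1 (chromosome 20, 627259 to 634014) encodes sulfiredoxin, which restores overoxidized peroxiredoxins. It had 51.5, 59.9 and 53.4 FPKM in NC and 50.6, 48.3 and 51.3 FPKM in FGL1-OE. Every FGL1-OE library was below every NC library, with FGL1-OE 3 just below NC 1. The means were 54.9 ± 4.40 and 50.1 ± 1.56 FPKM and the log2 fold change was -0.13 (SE 0.14, 95% interval -0.46 to 0.20, exact two-sided permutation p = 0.1). Of its 31-base words, counted on either strand, 84.9% are shared with the gene AL121758.1, which is not among the genes listed. Reads may therefore be shared between both.

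NQO1 (chromosome 16, 69740899 to 69760854), the quinone reductase often used as a readout of NRF2, had 56.3, 66.0 and 72.7 FPKM in NC and 79.5, 68.1 and 70.7 FPKM in FGL1-OE. FGL1-OE 1 was highest and NC 1 lowest, with NC 3 among the FGL1-OE libraries. The means were 65.0 ± 8.26 and 72.7 ± 5.96 FPKM and the log2 fold change was 0.16 (SE 0.16, 95% interval -0.21 to 0.54).

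**Figure D2:**
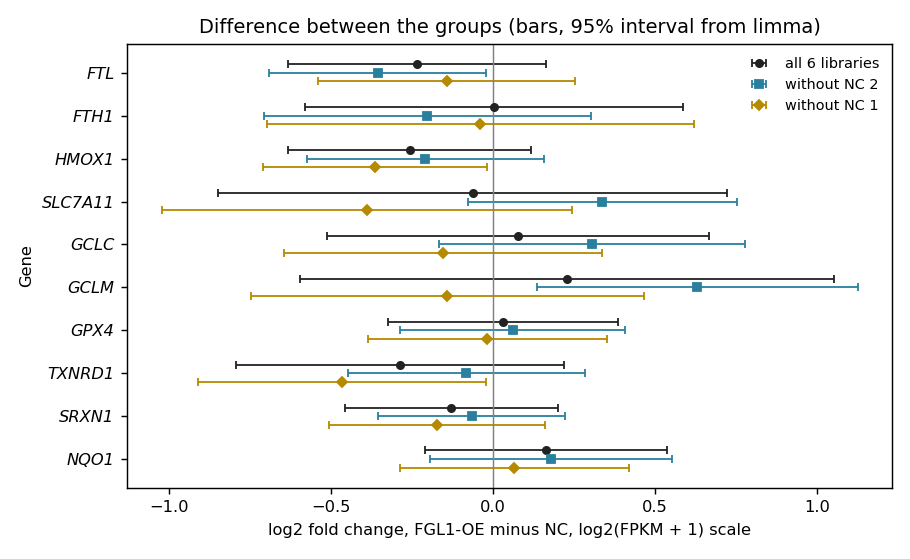
Log2 fold change of each gene on the log2(FPKM + 1) scale, FGL1-OE minus NC, with 95% intervals from limma for all 6 libraries (black), without NC 2 (blue) and without NC 1 (gold). With all libraries every interval held 0, and SLC7A11, GCLC and GCLM lay at 0.34, 0.31 and 0.63 without NC 2 but at -0.39, -0.15 and -0.14 without NC 1.

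Leaving out NC 2, GCLM (higher) and FTL (log2 fold change -0.35) passed an unadjusted p of 0.05, which is 2 of 10 genes, but 21.8% of all genes passed as well. Leaving out NC 1, HMOX1 and TXNRD1 passed, 2 of 10 against 2.76% of all genes. Both were lower in FGL1-OE, as were 1.23% of all genes by this measure. After a trend with GC content and length was removed from each library, which was added after seeing the data, TXNRD1 (-0.34) and FTL (-0.23) passed, 2 of 10 against 6.27% of all genes. No gene passed an unadjusted p of 0.05 in each of these 3 settings. Over 15 alternative settings the smallest adjusted p of any of the 10 genes was 0.199, for GCLM without NC 2, and the largest was 1.00.

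The spread within the groups was unequal. The median SD of log2(FPKM + 1) over the 10 genes was 0.302 in NC and 0.130 in FGL1-OE, and 9 of 10 genes varied more in NC. GPX4 was the exception. Over all genes the medians were 0.308 and 0.121, and 84.1% varied more in NC, so that the 10 genes were like the rest in this.

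The spread within NC followed the same order of libraries for several genes. NC 2 exceeded NC 1 in 8 of the 10 genes. The difference was 1.54 on the log2 scale for GCLM, 1.45 for SLC7A11, 0.92 for GCLC and 0.77 for TXNRD1. These 4 had the lowest GC contents of the 10 in their most abundant transcript, from 35.4% for SLC7A11 to 44.3% for GCLC, and long transcripts of 3813 to 9645 bases. FTL and FTH1, with transcripts of 878 and 742 bases, were lower in NC 2 by 0.42 and 0.33. GPX4, with a transcript as short (793 bases), was higher in NC 2 by 0.16. HMOX1, SRXN1 and NQO1 were higher by 0.31, 0.21 and 0.23. Among all genes the NC 2 to NC 1 difference of GCLM was at percentile 98.6, that of SLC7A11 at 97.9 and that of FTL at 26.4. Once the trend with GC content and length had been taken out, the differences of GCLM, SLC7A11, GCLC and TXNRD1 were 0.61, 0.48, 0.41 and 0.22. Those of GPX4 and HMOX1 were 0.81 and 0.74, and those of SRXN1 and NQO1 0.34 and -0.16. The difference of FTL shrank to -0.12, whereas that of FTH1 grew to -0.52. What sets this order of the NC libraries was not tested.

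**Figure D3:**
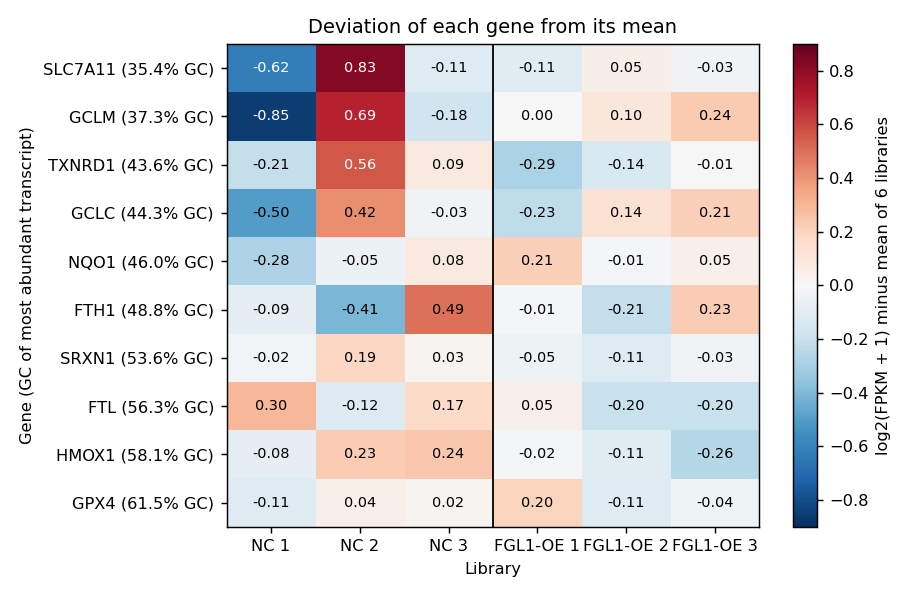
Log2(FPKM + 1) of each gene in each library minus its mean over 6 libraries, with genes ordered by the GC content of their most abundant transcript, lowest at the top. The 4 upper rows, SLC7A11, GCLM, TXNRD1 and GCLC, were negative in NC 1 and positive in NC 2, and their FGL1-OE values lay between -0.29 and 0.24.

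Averaged over the 10 genes, the centred log2 value was -0.25, 0.24 and 0.080 in NC 1 to 3 and -0.024, -0.060 and 0.016 in FGL1-OE 1 to 3. Not all 10 genes share this pattern. FTL was at 0.30 in NC 1 and -0.12 in NC 2, and FTH1 at -0.086 and -0.41, while NC 2 exceeded NC 1 in the other 8. The genes outside the 10 whose pattern over the 6 libraries was most like this mean were CD164, with a Pearson r of 0.990, GPRC5A (0.985), RBM34 (0.980), SMIM30 (0.977) and RDX (0.977), out of 3992 genes with a mean of at least 10 FPKM. An r above 0.9 was found for 2.33% of these genes, and the points share the libraries NC 1 and NC 2 as their extremes. CD164, a sialomucin of the cell surface, had 8.48, 19.9 and 14.4 FPKM in NC and 12.4, 11.2 and 14.2 FPKM in FGL1-OE.

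The transcript table lists 41 transcripts of the 10 genes, of which 40 had a mean of at least 0.5 FPKM. None passed an adjusted p of 0.05, against 0.0165% of the 30330 transcripts tested, and the smallest adjusted p was 1.00. At an unadjusted p of 0.05, 5 of 40 transcripts (12.5%) passed, beside 3.53% of all transcripts. Of these 2 were higher and 3 lower in FGL1-OE, beside 2.05% and 1.48% of all transcripts. The groups did not overlap for 6 of 40 (15.0%), beside 8.22%. Transcripts of a gene share sequence to varying degrees and are no replicates of each other. The FPKM of a gene was the sum of its listed transcripts for FTL and SRXN1 and nearly so for SLC7A11, each with 1 listed transcript, but not for the others. The sum was 1.97 to 2.34 times the gene value for FTH1 and 2.49 to 2.56 times for GPX4. It was 0.904 to 2.15 times for GCLC and 1.56 to 2.49 times for TXNRD1. For GCLC and TXNRD1, transcript and gene values thus kept no fixed proportion over the libraries, which limits the transcript values below.

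The 2 GCLC transcripts among these had fold changes of opposite sign. ENST00000229416 had 11.4, 27.0 and 5.60 FPKM in NC and 3.96, 4.39 and 4.76 FPKM in FGL1-OE, with every FGL1-OE library below every NC library (log2 fold change -1.30, SE 0.53, unadjusted limma p = 0.0470, exact permutation p = 0.1). ENST00000616923 had 1.40, 0 and 3.27 FPKM in NC and 3.02, 19.0 and 20.1 FPKM in FGL1-OE, where FGL1-OE 1 lay within the NC range (log2 fold change 2.46, SE 0.82, unadjusted limma p = 0.0227, exact permutation p = 0.2). The first made up 84.6%, 94.9% and 50.6% of the listed GCLC transcript FPKM in NC and 50.1%, 17.7% and 18.1% in FGL1-OE. The second held 10.4%, 0% and 29.6% in NC and 38.3%, 76.4% and 76.4% in FGL1-OE. NC 3 and FGL1-OE 1 were thus alike in both shares, and FGL1-OE 2 and 3 were apart from all others. Of the 31-base words of these transcripts 0.740% and 4.57% occur in no other GCLC transcript, although the transcripts differ in length (3813 and 3287 bases) and GC content (44.3% and 40.2%). Without NC 2 their unadjusted p-values were 0.0749 and 0.0783.

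The other 3 belong to NQO1, FTH1 and GPX4. ENST00000439109 of NQO1 had 24.2, 18.8 and 37.0 FPKM in NC and 46.3, 46.0 and 42.3 FPKM in FGL1-OE (log2 fold change 0.78, SE 0.30, unadjusted limma p = 0.0401, exact permutation p = 0.1). ENST00000529548, a minor FTH1 transcript, had 6.87, 3.56 and 4.86 FPKM in NC and 1.65, 3.36 and 2.60 FPKM in FGL1-OE (log2 fold change -0.78, SE 0.32, unadjusted limma p = 0.0498, exact permutation p = 0.1). ENST00000585362 of GPX4 had 3.51, 8.25 and 2.45 FPKM in NC and 1.21, 0.568 and 1.27 FPKM in FGL1-OE (log2 fold change -1.40, SE 0.42, unadjusted limma p = 0.0148, exact permutation p = 0.1). In each of these 3 the groups did not overlap, with the NQO1 transcript above and the others below all NC libraries. The GPX4 transcript is a small part of the gene's FPKM, with a mean share of 3.04% in NC and 0.639% in FGL1-OE, and 28.3% of its words occur in no other GPX4 transcript. The NQO1 transcript had a mean share of 25.0% in NC and 35.8% in FGL1-OE, with 2.68% of words of its own. It was the leading NQO1 transcript in FGL1-OE 1 and 2, whereas ENST00000320623 led in FGL1-OE 3 and in NC 2. Each of the 5 transcripts lost an unadjusted p of 0.05 when some single library was left out, the highest limma p-values over the 6 libraries being 0.108 and 0.0783 for ENST00000229416 and ENST00000616923, 0.0984 for ENST00000439109, 0.155 for ENST00000529548 and 0.0521 for ENST00000585362.

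TXNRD1 showed how unsettled the split between transcripts was within a group. The most abundant of its 9 listed transcripts was ENST00000388854 in NC 1 with 62.6% of the gene's transcript FPKM. It was ENST00000503506 in NC 2, NC 3 and FGL1-OE 2, with 75.5%, 60.4% and 75.9%. In FGL1-OE 1 and 3 it was ENST00000526950 with 54.6% and 42.4%. None of these 3 has a 31-base word that no other TXNRD1 transcript holds.

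The FTH1 transcript of highest mean, ENST00000532601, had 443, 218 and 763 FPKM in NC and 344, 309 and 755 FPKM in FGL1-OE, with replicate 3 highest in both groups. In NC 2 it was below ENST00000273550, which had 235 FPKM there. ENST00000532601 is the 1 of 8 listed FTH1 transcripts without the IRE letters shown above in its first 250 bases. The transcripts with these letters made up 36.6%, 57.4% and 32.1% of FTH1 transcript FPKM in NC and 51.1%, 50.3% and 20.8% in FGL1-OE. The groups overlapped, and the lowest share was that of FGL1-OE 3.

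**Figure D4:**
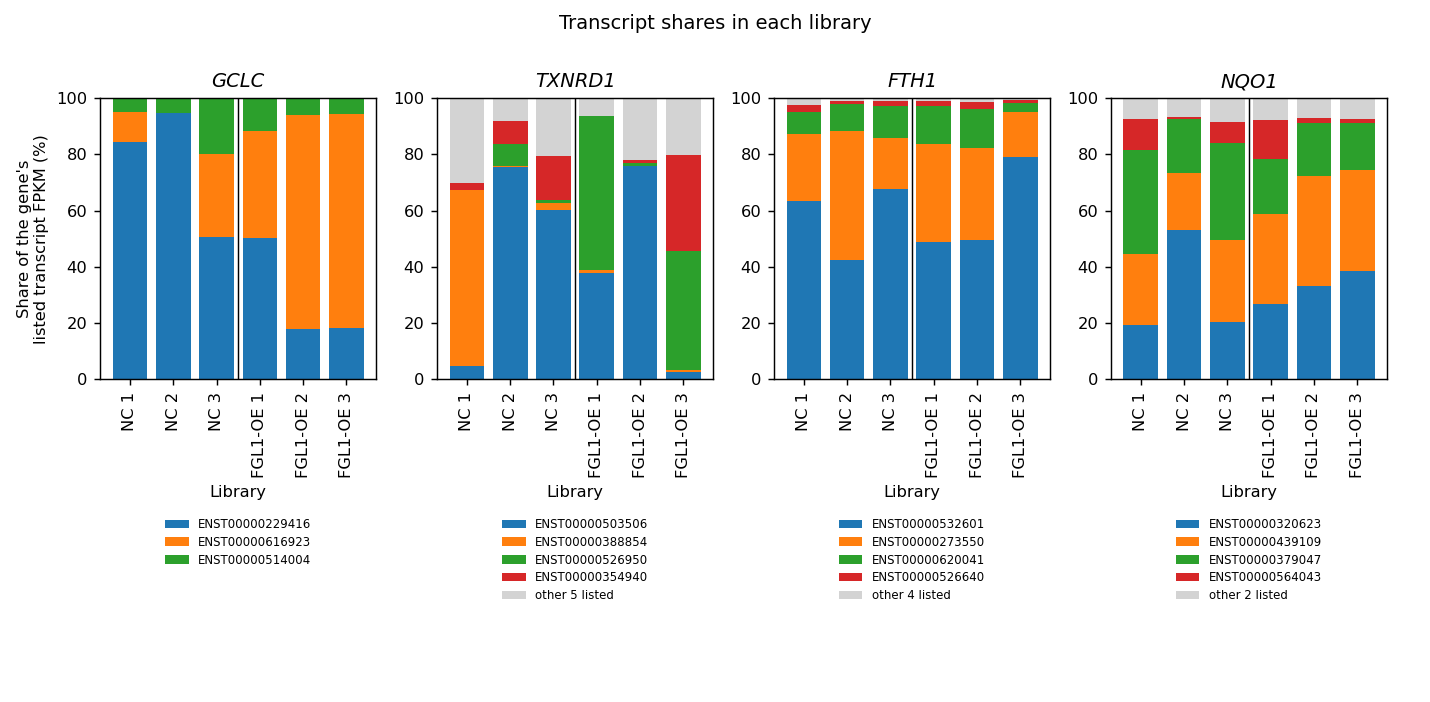
Share of the listed transcript FPKM of GCLC, TXNRD1, FTH1 and NQO1 held by each transcript in each library, in percent, with NC left and FGL1-OE right of the line. The GCLC transcript ENST00000229416 held 50.6% or more in NC and 50.1% or less in FGL1-OE, with NC 3 and FGL1-OE 1 alike. The leading transcript changed within both groups for TXNRD1 and NQO1. For FTH1 it changed within NC, where ENST00000273550 led in NC 2. For GCLC it changed within FGL1-OE, where ENST00000616923 led in FGL1-OE 2 and 3.

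The surrounding pathway was described with 8 lists of related genes, of which 142 genes were tested. None passed an adjusted p of 0.05, 3 passed an unadjusted p of 0.05, all of them lower in FGL1-OE as were 0.807% of all genes, and 9 (6.34%) had groups that did not overlap, against 7.15% of all genes. Of the 13 tested NRF2 regulators none passed an unadjusted p of 0.05, and their median log2 fold change was -0.15. NFE2L2 itself had 3.04, 7.61 and 4.83 FPKM in NC and 2.50, 5.29 and 5.70 FPKM in FGL1-OE, with overlapping groups and a log2 fold change of -0.15 (SE 0.34, exact permutation p = 0.7). It was 0.12 without NC 2 and -0.42 without NC 1. KEAP1, its inhibitor, had 14.5, 11.4 and 14.3 FPKM in NC and 17.7, 18.6 and 12.0 FPKM in FGL1-OE, with FGL1-OE 3 among the NC libraries and a log2 fold change of 0.23 (SE 0.20, exact permutation p = 0.3). The autophagy receptor SQSTM1, which binds KEAP1, and the related factor NFE2L1 were the most abundant of the list. Their log2 fold changes were -0.15 and -0.50. Without NC 2 they were -0.39 and -0.81, and without NC 1 0.083 and -0.39.

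Of 23 other NRF2 targets tested 2 passed an unadjusted p of 0.05, both lower. PTGR1, a reductase of prostaglandins and reactive aldehydes, had 43.6, 41.7 and 41.7 FPKM in NC and 34.0, 33.3 and 33.2 FPKM in FGL1-OE. Its replicates were close and its groups did not overlap, with a log2 fold change of -0.33 (SE 0.13, unadjusted limma p = 0.0404, exact permutation p = 0.1). TRIM16 had 4.87, 3.88 and 5.04 FPKM in NC and 2.74, 4.04 and 2.66 FPKM in FGL1-OE, where FGL1-OE 2 was above NC 2 (log2 fold change -0.44, SE 0.18, unadjusted limma p = 0.0455, exact permutation p = 0.2). Without NC 1 the limma p-values were 0.0559 for PTGR1 and 0.0816 for TRIM16. The median of the list was -0.044.

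None of 13 enzymes of the pentose phosphate pathway and NADPH supply passed an unadjusted p of 0.05. The median was 0.14, and 11 of 13 had a log2 fold change above 0, as had 6455 of all 12017 genes. PGD, 6-phosphogluconate dehydrogenase, had 106, 106 and 115 FPKM in NC and 137, 122 and 125 FPKM in FGL1-OE, so that its groups did not overlap (log2 fold change 0.23, SE 0.14, exact permutation p = 0.1). IDH2, the mitochondrial NADPH-forming isocitrate dehydrogenase, had a log2 fold change of 0.14.

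Among 27 genes of glutathione synthesis and use none passed an unadjusted p of 0.05, with a median of 0.019. GSTP1, a glutathione transferase and the most abundant gene of the list, had means of 308 and 303 FPKM, and GLO1, which removes methylglyoxal, had 149 and 149.7 FPKM. Among 18 genes of thioredoxin, peroxiredoxin, superoxide and peroxide removal 1 passed, and the median was 0.022. This was TXNIP, which binds and inhibits thioredoxin, with 17.7, 27.3 and 24.1 FPKM in NC and 19.6, 12.7 and 14.2 FPKM in FGL1-OE. FGL1-OE 1 was above NC 1, so that the groups overlapped (log2 fold change -0.54, SE 0.22, exact permutation p = 0.2). Its unadjusted limma p was 0.0443 with all libraries, 0.0980 without NC 2 (log2 fold change -0.41) and 0.0103 without NC 1 (-0.71).

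None of 23 iron and heme genes, 15 further ferroptosis genes and 12 selenoprotein genes passed an unadjusted p of 0.05. Their median log2 fold changes were 0.070, 0.11 and 0.064. TFRC, the transferrin receptor that takes up iron, had means of 99.9 and 83.8 FPKM and a log2 fold change of -0.22 (SE 0.22), which was -0.035 without NC 2 and -0.42 without NC 1. NCOA4, which delivers ferritin to autophagy, had means of 69.9 and 83.3 FPKM and a log2 fold change of 0.23 (SE 0.23), which was 0.36 without NC 2 and 0.090 without NC 1. PCBP1, an iron chaperone of ferritin, had means of 134 and 151 FPKM and a log2 fold change of 0.20 (SE 0.19), which was 0.36 without NC 2 and 0.028 without NC 1. For these 3 the groups overlapped. The most abundant selenoprotein genes of the list, SELENOF and SEPHS2, had log2 fold changes of -0.31 and 0.032.

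The medians of most lists moved when NC 2 was left out, and that over all genes moved from 0.016 to 0.035. List medians without NC 1 are not given. Without NC 2 the median of the NRF2 regulators was 0.12, that of glutathione synthesis and use -0.065 and that of the further ferroptosis genes -0.029, each of the opposite sign. The medians were 0.21 for the NADPH enzymes, 0.075 for thioredoxin and peroxide removal, 0.15 for iron and heme and 0.12 for selenoprotein synthesis, while that of the other NRF2 targets stayed at -0.043. At an unadjusted p of 0.05, 4 of 13 NRF2 regulators, 9 of 27 glutathione genes and 5 of 15 ferroptosis genes passed without NC 2. Of the other lists, 4 of 23 NRF2 targets, 2 of 13 NADPH enzymes, 1 of 18 thioredoxin genes, 3 of 23 iron genes and 2 of 11 selenoprotein genes passed. Over all genes 21.8% passed in this setting, and no list gene passed an adjusted p of 0.05.

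**Figure D5:**
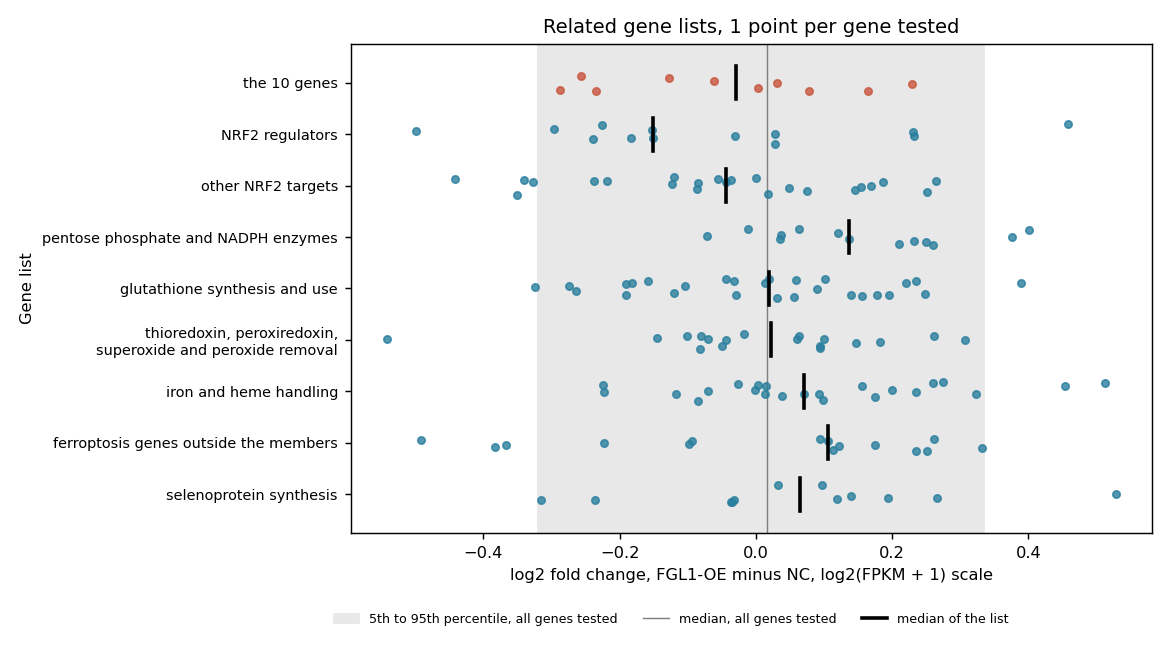
Log2 fold change, FGL1-OE minus NC on the log2(FPKM + 1) scale, of the 10 genes (red) and of the genes of 8 related lists (blue), with the median of each list as a black line. The grey band runs from the 5th to the 95th percentile of all genes tested, -0.32 to 0.33, and all 10 genes lay within it.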

How the data were processed

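RNA-seq of 3 NC and 3 FGL1-OE libraries of TE-1 cells was analysed, grouped by the genotype in the labels. The authors deposited FPKM per library for 12180 genes and 33090 transcripts after oligo(dT) enrichment and stranded library preparation. The submitters' processing notes name StringTie and GRCh37, and the aligner is not given in the sources used here. The deposited columns of the authors' own comparison (log2 fold change, fold change, p- and q-values and group values) were not used. Sequence, length and GC content came from GENCODE v29 and promoter windows from RefSeq, both on GRCh38, and gene coordinates were kept on GRCh37.

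Genes and transcripts averaging 0.5 FPKM or more were tested with limma 3.58.1 (R 4.3.3, two-sided, Benjamini-Hochberg adjustment over all features of a table) on log2(FPKM + 1), without covariates and without scaling the libraries to each other (pseudocount 1). Fold changes on this scale understate changes of low genes. Single values had an exact two-sided permutation test over libraries (scipy 1.17.1, Python 3.11.15). The code was tested on simulated data. Depth is unknown, since the strength of the strongest whole-read period was 0.0870 to 0.117, against up to 0.123 with shuffled lengths, so that no whole reads were recovered. Transcripts were compared by words of 31 bases.

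The members and the lists of related genes were chosen with earlier results of these data known. Named are the 10 genes and their transcripts, FGL1, SLC3A2, NFE2L2, KEAP1, from each list the genes with an unadjusted p under 0.05 or else the 2 of highest mean FPKM, and the 5 genes of most similar pattern. The markers CDH1 and KRT6A and the gene AL121758.1 were named after the data were seen. Alternatives were a smaller pseudocount (0.1), a filter at 1 FPKM or none, TPM scaling, quantile normalization, a replicate block, no variance moderation, leaving out each library, transcript sums and, added after seeing the data, removal of the GC and length trend by loess.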

Additional observations from a re-analysis of the deposited data

How the results depend on the processing

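Of 150 alternative values of the 10 gene fold changes, 138 kept their direction and 12 reversed. FTH1 reversed with TPM scaling (-0.0035) and after removal of the GC and length trend (-0.061), and TXNRD1 with transcript sums (0.052). Leaving out 1 library at a time gave -0.20 to 0.25 for FTH1, -0.39 to 0.34 for SLC7A11, -0.15 to 0.31 for GCLC, -0.14 to 0.63 for GCLM and -0.061 to 0.096 for GPX4. FTL, HMOX1, TXNRD1, SRXN1 and NQO1 kept their sign in all 6 of these. The median of the 10 genes ran from -0.15 to -0.0021. The log2 difference of the ratio of SLC7A11 to SLC3A2 ran from -0.40 to 0.86, that of FTH1 to FTL from 0.081 to 0.46 and that of GCLC to GCLM from -0.35 to -0.020. The causes were not tested.

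The number of the 10 genes that passed an adjusted p of 0.05 was 0 in every alternative. At an unadjusted p it was 2 with the GC and length trend removed and 0 to 2 with 1 library left out. For transcripts of the 10 genes the 5 became 2 with a pseudocount of 0.1, 2 without variance moderation and 2 to 7 with 1 library left out. Over all genes, 1 called gene became 2 without moderation, 2 with the trend removed and 1 to 7 with 1 library left out, the 7 without NC 2. Over all transcripts, 5 became 29 with a pseudocount of 0.1, 3 without moderation and 1 to 28 with 1 library left out, the 28 without NC 2. Of the transcripts of the 10 genes, 19 changed sign in some alternative.

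The labels do not say whether replicate numbers pair the libraries. The correlations of same-numbered libraries' deviations were 0.345, 0.282 and -0.061, which do not settle it. NC 1 and NC 2 correlated best with their own number and NC 3 with FGL1-OE 1. With a replicate block 0 transcripts were called over the whole table, 2 transcripts of the 10 genes passed an unadjusted p of 0.05, and the number of genes called stayed at 1. With 3 libraries a group and unknown depth, differences as wide as the printed intervals could not be told from 0.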
